A study of Mus musculus with 6 samples.

Results

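The ligands of the TNF superfamily are signalling proteins that form trimers, most of them made at the cell surface and some released from it. The rule named 9 of their genes, and 8 of them had a row of their own on the array, out of 19938 genes tested. These were Tnf, Lta, Ltb, Tnfsf9, Tnfsf10, Tnfsf13b, Tnfsf14 and Tnfsf15, each on 1 row. Tnfsf12, which encodes TWEAK, shared its row with Tnfsf13 and their read-through gene Tnfsfm13, so it has no level of its own here. That shared row stood at 8.52, 8.53 and 8.62 after PBS and at 8.14, 8.31 and 8.31 after Con A, and it was not tested.

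Liver cells positive for CD11b and Gr-1 were sorted from C57BL/6 mice bearing EL4 tumours, a transplanted T cell lymphoma. By their label they are hepatic myeloid-derived suppressor cells (MDSC), a mixed population of immature granulocytes and monocytes known for dampening T cell responses. One group of 3 samples came from mice injected with PBS, which the titles also call untreated, and the other group of 3 from mice injected with type IV concanavalin A (Con A), a lectin that activates T cells and inflames the mouse liver. All samples were taken after 3 hours, and both groups carried the tumour, so no tumour-free liver enters the comparison. The dose is 12.5 mg/kg in one label and 12.5 ug/kg in another. The labels give neither age nor sex, and do not say whether each array held RNA of 1 mouse. The p-values therefore reflect only how far these arrays spread, and that spread may be technical.

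TNF superfamily ligands bind receptors of the TNF receptor superfamily, which recruit TRAF adaptors and switch on NF-kB and MAP kinases or, through death domains, caspases. TNF made by myeloid cells and lymphocytes is a main mediator of liver injury in the Con A model. Lymphotoxins are made mostly by lymphocytes, and TRAIL, BAFF and LIGHT are also made by myeloid cells.

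After Con A, 3 of the 8 ligand genes were higher and 1 was lower. Tnf rose 2.21-fold, the lymphotoxin gene Lta 1.58-fold and the lymphotoxin beta gene Ltb 1.46-fold, while Tnfsf14, which encodes LIGHT, fell 1.5-fold. The other 4, Tnfsf9, Tnfsf10, Tnfsf13b and Tnfsf15, did not pass the test. Among all genes the share called was 11.8% in either direction, 4.59% higher and 7.22% lower (limma, Benjamini-Hochberg adjusted p under 0.05). The groups did not overlap in 4 of the 8, the same genes that were called, beside 29.9% of all genes. The median difference of the 8 was 0.14 on the log2 scale, against 0.02 over all genes tested. Because these are samples of mixed cells, fewer cells of a type and less RNA per cell cannot be told apart.

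The promoters of called ligands are shown because Tnf, Ltb and Lta are direct neighbours on chromosome 17 and rose together, while Tnfsf14 lies elsewhere on that chromosome and fell. Each stretch is the 250 bases before the start of transcription, 5′ to 3′ along the gene, from RefSeq (GRCm38.p6). Capitals mark matches to a kappaB-like motif, GGGNNNNNCC, the kind of site NF-kB binds, or to a GAS-like motif, TTCNNNGAA, the kind STAT dimers bind, on either strand.
Tnf (chr17:35202008-35202257, minus strand): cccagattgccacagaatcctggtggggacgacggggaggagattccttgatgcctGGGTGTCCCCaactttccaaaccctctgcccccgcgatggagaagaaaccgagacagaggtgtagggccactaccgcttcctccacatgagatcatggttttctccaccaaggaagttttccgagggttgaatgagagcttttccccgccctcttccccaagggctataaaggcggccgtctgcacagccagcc
Ltb (chr17:35194257-35194506, plus strand): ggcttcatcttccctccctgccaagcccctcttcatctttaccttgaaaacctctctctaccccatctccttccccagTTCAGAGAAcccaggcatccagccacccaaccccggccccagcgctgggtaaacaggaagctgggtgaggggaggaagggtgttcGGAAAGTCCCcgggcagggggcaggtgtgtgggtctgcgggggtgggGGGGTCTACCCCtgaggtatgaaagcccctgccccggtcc
Tnfsf14 (chr17:57194182-57194431, minus strand): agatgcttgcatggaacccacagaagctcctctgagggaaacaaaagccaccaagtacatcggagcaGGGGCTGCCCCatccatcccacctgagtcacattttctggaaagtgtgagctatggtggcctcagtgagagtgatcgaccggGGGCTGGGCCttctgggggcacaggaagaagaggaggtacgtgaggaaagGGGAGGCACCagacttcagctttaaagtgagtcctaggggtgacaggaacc

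Tnf held a kappaB-like match at 1 place, 194 to 185 bases before its start. Ltb held 2 places, 87 to 78 and 40 to 29 bases before the start, with 1 GAS-like match further out. Tnfsf14, the gene that fell, held 3 kappaB-like places. The window listed for Lta overlaps the span annotated for that gene and is not printed, and it held 1 kappaB-like and 2 GAS-like places. Overlapping matches were counted as 1 place, and a stretch can match on both strands. Of all 32851 promoter windows of this length, 45.8% held the kappaB-like motif, 7.02% the GAS-like motif and 2.98% an ISRE-like motif, GAAANNGAAA, of which these 4 held none. A match to these short letters is a description of the sequence and no evidence of binding. Promoters were listed for 7 of the 8 genes. Tnfsf10 and Tnfsf15 held none of the 3 motifs, and Tnfsf13b held an ISRE-like match in 1 of its listed windows.

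Tnf encodes the founding cytokine of the family, which signals through TNF receptors 1 and 2. Its level on the log2 scale was 10.82, 10.73 and 11.23 after PBS and 11.78, 12.28 and 12.16 after Con A. All 3 Con A arrays lay above all 3 PBS arrays, with 0.55 between the highest PBS array, replicate 3, and the lowest Con A array, replicate 1. The mean rose from 10.93 ± 0.27 (SD, n = 3) to 12.07 ± 0.26, a difference of 1.15 (95% interval 0.75 to 1.55, adjusted p = 0.00604 by limma). With any 1 array left out the difference stayed between 1.04 and 1.30, and the call held, at adjusted p up to 0.0375.

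Ltb encodes the membrane-bound partner that anchors lymphotoxin alpha in a heterotrimer which binds the lymphotoxin beta receptor. Its levels were 10.48, 10.36 and 10.28 after PBS and 10.88, 11.00 and 10.89 after Con A. The arrays within each group lay close together, with SDs of 0.10 and 0.07, and the groups were separated by 0.39. The difference was 0.54 (95% interval 0.35 to 0.74, adjusted p = 0.00638 by limma) and lay between 0.50 and 0.60 with 1 array left out, always past the threshold.

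Lta encodes lymphotoxin alpha, which is secreted as a homotrimer or held at the surface by lymphotoxin beta. It was dim, at 6.72, 6.28 and 6.59 after PBS and 6.89, 7.34 and 7.34 after Con A, beside array medians of 7.05 to 7.08. The groups did not overlap, but only 0.17 separated PBS replicate 1 from Con A replicate 1. The difference of 0.66 (95% interval 0.29 to 1.03) had an adjusted p of 0.037 by limma. That call ended without PBS replicate 1 (adjusted p = 0.0649), PBS replicate 2 (0.0912), Con A replicate 2 (0.14) or Con A replicate 3 (0.12), while the direction stayed upward. The deposited values carry no detection calls, so expression of Lta in these cells is not established.

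Tnfsf14 encodes LIGHT, a ligand of the herpesvirus entry mediator (the product of Tnfrsf14) and of the lymphotoxin beta receptor. Its levels were 10.23, 10.29 and 10.31 after PBS and 9.62, 9.65 and 9.80 after Con A. All Con A arrays lay below all PBS arrays, with 0.43 between the groups. The gene fell by 0.59 (95% interval -0.77 to -0.41, adjusted p = 0.00387 by limma). The difference ranged from -0.64 to -0.55 with 1 array left out, and the call held each time.

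**Figure D1:**
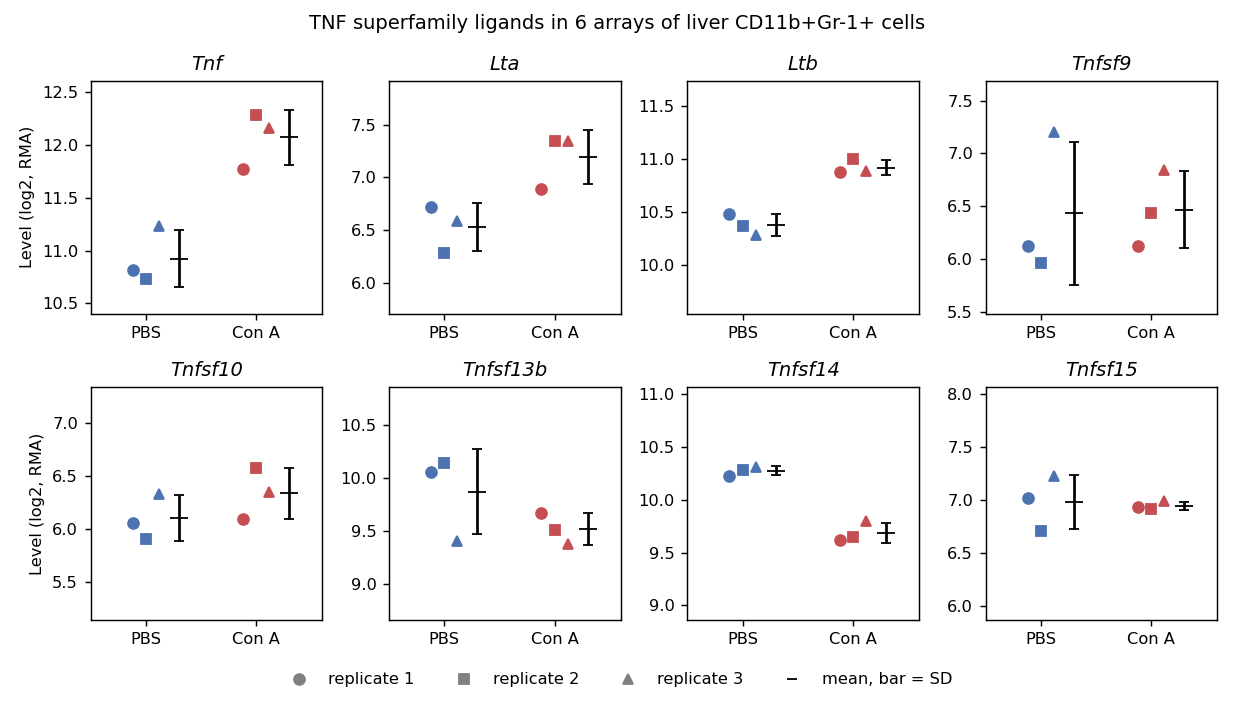
Level of each ligand gene on the log2 scale (vertical axes, each 2.2 units tall) in the PBS and Con A arrays, with marker shapes for the replicate number of the labels and a bar for mean and SD (n = 3). Tnf, Lta, Ltb and Tnfsf14 separate the groups, and Tnfsf9 and Tnfsf13b show PBS replicate 3 apart from the other PBS arrays.

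Tnfsf13b encodes BAFF, a survival factor for B cells that monocytes and neutrophils produce. Its levels were 10.06, 10.14 and 9.41 after PBS and 9.67, 9.51 and 9.38 after Con A. Only PBS replicate 3 lay within the range of the Con A arrays, and the other PBS arrays lay above all of them. The difference was -0.35 (95% interval -0.80 to 0.10, adjusted p = 0.324 by limma). Without PBS replicate 3 it was -0.58 and passed the threshold at adjusted p = 0.0116, so that 1 array decides the call.

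Tnfsf9 encodes 4-1BBL, a costimulatory ligand for T cells. It stood at 6.13, 5.96 and 7.21 after PBS and at 6.12, 6.43 and 6.85 after Con A. The highest array of each group was replicate 3, and the groups overlapped throughout. The difference was 0.04 (95% interval -0.74 to 0.81, adjusted p = 0.965 by limma), an interval wide enough to hold a change of the size seen for Ltb or Lta in either direction. With 1 array left out its extremes were -0.20 (PBS replicate 2 dropped) and 0.42 (PBS replicate 3 dropped).

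Tnfsf10 encodes TRAIL, which triggers apoptosis through its death receptor. Its levels were 6.06, 5.91 and 6.34 after PBS and 6.09, 6.58 and 6.35 after Con A, and the groups overlapped. The difference was 0.24 (95% interval -0.12 to 0.59, adjusted p = 0.401 by limma). Tnfsf15 encodes TL1A, the ligand of death receptor 3. It stood at 7.02, 6.71 and 7.23 after PBS and at 6.93, 6.91 and 6.99 after Con A, with all Con A arrays inside the PBS range. Its difference was -0.04 (95% interval -0.34 to 0.26, adjusted p = 0.891 by limma). Tnfsf9, Tnfsf10, Tnfsf15 and Lta had means below the median gene, and 4 of the 8 members lay at or above it. On this scale dim genes give understated differences, so the 4 dim members carry less information than the bright ones.

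**Figure D2:**
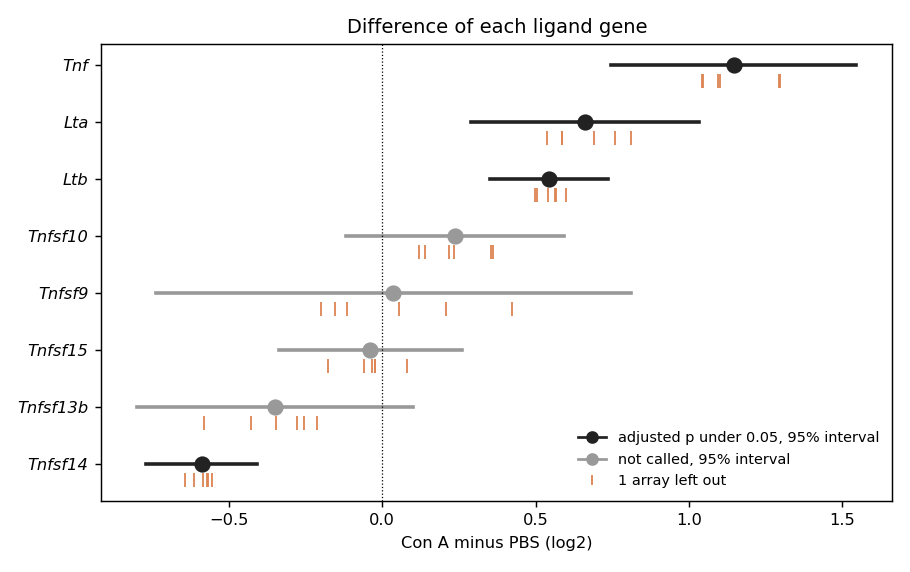
Con A minus PBS for each ligand gene on the log2 scale (horizontal axis), with 95% intervals of the limma fit and, as ticks below, the difference with 1 array left out. The intervals of Tnf, Lta, Ltb and Tnfsf14 stay clear of 0, and the ticks of Tnfsf9 and Tnfsf15 fall on both sides of it.

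Of the 6 nearest protein-coding genes around the Tnf locus, 3 on each side, 0 were higher and 1 was lower after Con A. Over all genes tested, 4.59% were higher and 7.22% lower, so counts over 6 genes say little. Lst1, next to Ltb, differed by -0.18 (adjusted p = 0.304 by limma) and Nfkbil1, next to Lta, by 0.08 (adjusted p = 0.641). Aif1, which encodes a calcium-binding protein of macrophages and lies beyond Lst1, fell by 1.35, from 7.73 ± 0.19 (SD, n = 3) to 6.38 ± 0.36 (adjusted p = 0.00416 by limma). Prrc2a, Atp6v1g2 and Ddx39b differed by -0.19 to 0.02 and did not pass. Tnfsf14 lies near Tnfsf9 and Cd70 in a second cluster of family genes on chromosome 17, and Tnfsf9 and Cd70, at -0.04, did not pass the test. These neighbours were chosen after the values of the ligands were seen.

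Tnf had the widest range of the 8 genes over the 6 arrays, 1.55. Its pattern was most like that of Cflar, which encodes the caspase-8 inhibitor c-FLIP (Pearson r = 0.9995), and of Irak2, a kinase gene of interleukin-1 and Toll-like receptor signalling (r = 0.9986). Lta was most like the predicted gene Gm2511 (r = 0.987) and the arginase gene Arg1 (r = 0.970). Tnfsf9 was most like Plxdc2 (r = 0.998) and Gpr31b (r = 0.998), which also peaked in replicate 3 of both groups. These are descriptions over 6 arrays that share a group difference, taken as the highest of 1711 genes with a range of at least 1.

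Other TNF superfamily ligands gave no call, beside 11.8% of all genes called in either direction. Of 8 measured genes of this kind, 0 passed the test in either direction, and the largest differences were 0.28 for Fasl, the Fas ligand gene (95% interval 0.02 to 0.54, adjusted p = 0.174 by limma), and 0.21 for Cd40lg (adjusted p = 0.371). Fasl was the 1 gene of these with an unadjusted p under 0.05. Cd40lg, which encodes the ligand of CD40, stood between 5.12 and 5.63 on all arrays, below the array medians. Fasl, Cd70, Tnfsf4, Tnfsf8, Tnfsf18 and Eda also lay below the medians on every array, and only Tnfsf11 lay above them. The lack of calls therefore says little about these dim genes. Tnfsf4, Tnfsf8, Tnfsf11, Tnfsf18, Cd70 and Eda differed by -0.04 to 0.14.

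Of the 14 receptor genes for the ligands described, 2 were higher and 0 lower, beside 4.59% and 7.22% of all genes. Their median difference was 0.17. Tnfrsf13b, which encodes the BAFF and APRIL receptor TACI, rose by 0.44, from 8.77 ± 0.03 (SD, n = 3) to 9.21 ± 0.12 (adjusted p = 0.0147 by limma). That call ended without PBS replicate 1 (0.0578) or PBS replicate 2 (0.051). Tnfrsf14, the receptor gene for LIGHT, rose by 0.30 (adjusted p = 0.0418), opposite to its ligand gene, and its call ended in each of the 6 fits with 1 array left out (adjusted p up to 0.132) and with arrays centred on their medians (0.0657). The TNF receptor genes differed by 0.24 for Tnfrsf1a (adjusted p = 0.112) and -0.39 for Tnfrsf1b (0.241), and neither passed the test. Ltbr, the receptor gene for lymphotoxin and LIGHT, differed by 0.09 (adjusted p = 0.528), and Tnfrsf10b, the TRAIL receptor gene, by 0.52 (0.176).

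Genes that release the ligands or control Tnf messenger RNA changed both ways, 2 higher and 2 lower of 14, with a median of -0.04. Among all genes the shares were 4.59% higher and 7.22% lower. Furin, a protease that cleaves BAFF and APRIL and activates other pro-proteins, rose 1.73-fold, from 11.12 ± 0.09 (SD, n = 3) to 11.91 ± 0.13 (adjusted p = 0.00243 by limma). Rhbdf2, which encodes the iRhom2 protein that carries the TNF-releasing enzyme to the surface, rose by 0.42 (adjusted p = 0.0173). Its call ended without PBS replicates 1 or 2 or Con A replicates 2 or 3, at adjusted p up to 0.0697. Adam17, the gene of that enzyme, differed by 0.01 (95% interval -0.33 to 0.34, adjusted p = 0.989). Zfp36l2, which encodes an AU-rich element decay factor, fell 1.92-fold, from 11.90 ± 0.13 to 10.96 ± 0.16 (adjusted p = 0.00219). Rc3h1, the gene of Roquin-1, which destabilises Tnf messenger RNA, fell by 0.44 (adjusted p = 0.0152). Its call ended without PBS replicate 1, Con A replicate 1 or Con A replicate 2, at adjusted p up to 0.0691. Zfp36, the gene of the decay factor tristetraprolin, differed by 0.17 (adjusted p = 0.532). Zc3h12a, also on this list, differed by 0.53 upward (95% interval 0.16 to 0.89) without passing the test (adjusted p = 0.0799 by limma).

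Below the receptors, 13 of 25 measured genes of TNF receptor 1 signalling were higher and 0 lower, with a median of 0.32. Of all genes tested, 4.59% were higher and 7.22% lower. In this list 18 of the 25 differences were positive, and Traf5 differed by -0.71 without passing the test (adjusted p = 0.0728 by limma). Tnfaip3, the gene of the NF-kB inhibitor A20, rose by 1.74 (adjusted p = 0.00879 by limma), and Mlkl, which carries out necroptosis, rose 2.74-fold from 8.002 ± 0.28 (SD, n = 3) to 9.45 ± 0.11. Birc3, which encodes the ubiquitin ligase cIAP2, rose by 0.96 (adjusted p = 0.00416). Nfkbia, the IkB-alpha gene, rose by 0.95 (adjusted p = 0.0184), a call that ended without PBS replicate 1, Con A replicate 2 or Con A replicate 3 (up to 0.0847). In the noncanonical arm used by the lymphotoxin beta receptor and the BAFF receptor, Relb and Nfkb2 rose by 1.20 and 1.03, while Map3k14, the kinase gene NIK, fell by 0.68. The call of Nfkb2 (adjusted p = 0.0103) ended without PBS replicate 1 or Con A replicate 2 (up to 0.0541). That of Map3k14 (adjusted p = 0.0384) ended without PBS replicates 1 or 3 or Con A replicates 1 or 2 (up to 0.142).

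**Figure D3:**
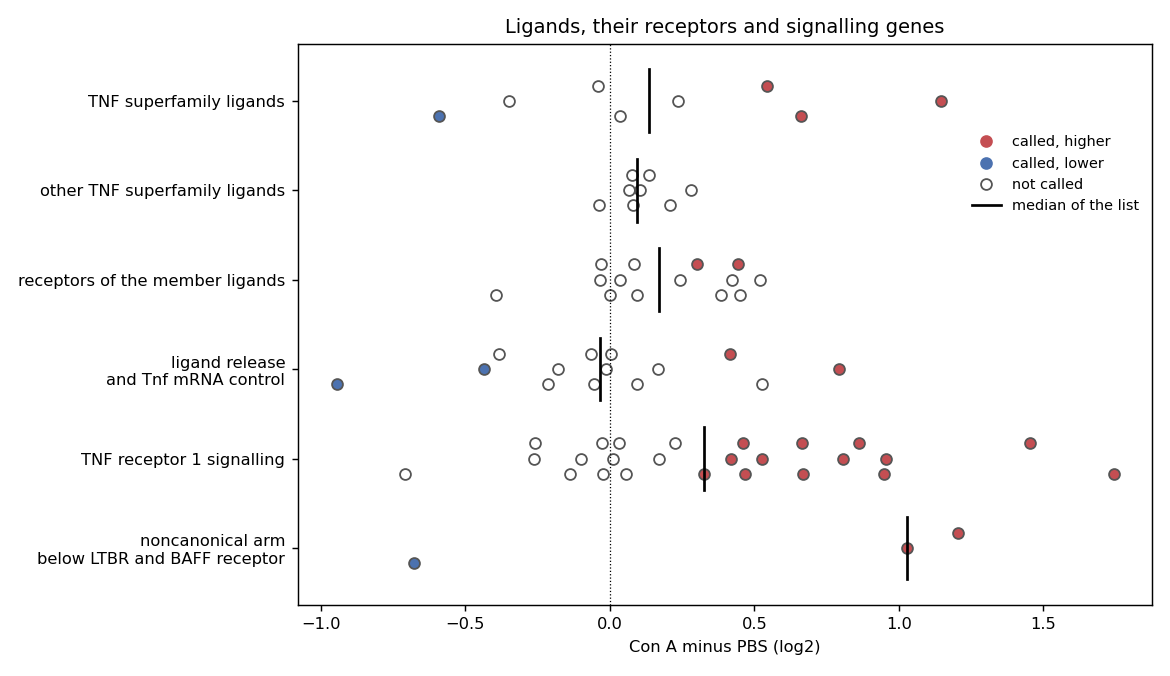
Con A minus PBS on the log2 scale (horizontal axis) for each gene of the ligand group and of 5 related lists, coloured by call, with a line at each list's median. The called genes of TNF receptor 1 signalling all lie to the right of 0, while called ligand genes lie on both sides.

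Markers of the sorted cells and of other cells were measured beside the ligands, as the log2 of the summed linear level of each list. Such a sum follows the brightest genes of a list. The counts called in each marker list stand beside 4.59% higher and 7.22% lower of all genes tested. Of 10 granulocytic markers 0 were higher and 1 was lower, Mmp9, a gelatinase gene, which differed by -0.58, and the sums were 16.7 to 16.9. The group means of these 10 genes, 12.97 to 13.76, lie close to the highest value on any array (14.239 to 14.301). Differences can be understated there, so these sums say little about a change in granulocytic cells.

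Of 8 measured monocytic markers, 4 fell, each by more than Tnfsf14, and 1 rose, beside 7.22% and 4.59% of all genes. Their median difference was -0.75, against 0.02 over all genes tested. F13a1, a coagulation factor gene, fell 4.46-fold, the chemokine receptor genes Ccr2 and Cx3cr1 fell 4.01-fold and 3.5-fold, and Fn1, the fibronectin gene, fell 1.65-fold. Irf8, a transcription factor gene of the monocytic lineage, rose by 0.98. The mean over the 8 genes differed from the PBS mean by -1.18, -0.69 and -0.75 in Con A replicates 1, 2 and 3. Their sum moved less, from 14.5 to 14.8 after PBS to 14.2 to 14.4 after Con A, since its brightest gene, Chil3, differed by 0.22 the other way and did not pass the test. The part of the monocytic shift in the fall of Tnfsf14 was not tested.

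T cells, NK cells and B cells are the usual source of lymphotoxins. Of 9 markers of T cells and the EL4 tumour, 0 passed the test by limma and 2 had an unadjusted p under 0.05, and their sum was 9.85 to 9.998 after PBS and 9.91 to 10.05 after Con A. Of 9 NK cell markers 0 passed by limma and 1 had an unadjusted p under 0.05. Their sum was 11.2 to 11.4 after PBS, 11.9 and 12.1 in Con A replicates 1 and 3 and lowest of all, 11.0, in Con A replicate 2. This sum is carried by Gzma and Nkg7, genes of cytotoxic granules, and the median difference of the 9 markers was 0.006. Of 6 B cell markers 0 were higher and 1, Ms4a1, was lower, and their sum was 9.62 to 10.1 after PBS and 9.51 to 9.62 after Con A. That sum is carried by Cd79b, which differed by -0.62 and did not pass the test (adjusted p = 0.0892 by limma). The median difference of the 6 markers was -0.23. The part of these cell types in the levels of the ligand genes was not tested.

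Con A replicate 2 stood apart in hepatocyte markers, with a sum of 11.6 against 9.72 to 9.95 on the other arrays, and in Kupffer cell markers, with 13.06 against 12.01 to 12.50. All 6 hepatocyte markers were highest on that array, as were 8 of the 9 Kupffer cell markers, the exception being Adgre1. By limma 0 of these 6 hepatocyte and 9 Kupffer cell markers passed the test, and 0 had an unadjusted p under 0.05. Without that array the difference of Tnf was 1.04 (adjusted p = 0.0332), that of Ltb 0.51 (0.0319) and that of Tnfsf14 -0.57 (0.0219). That of Lta was 0.59 and no longer passed (adjusted p = 0.14 by limma). Of 7 endothelial markers 1 was lower, Lyve1, a hyaluronan receptor gene, from 9.65 ± 0.53 (SD, n = 3) to 8.31 ± 0.04 (adjusted p = 0.0111 by limma). Lyve1 carries the endothelial sums of 10.01 to 10.67 after PBS and 9.72 to 10.08 after Con A. Of the 7 markers, 5 had positive differences, and the median was 0.08. Cdh5 stood highest on Con A replicate 2, at 8.21 against 6.59 to 7.14 on the other arrays. So did Stab2 (7.125 against 6.66 to 6.76) and Clec4g (6.66 against 6.145 to 6.39), but not Kdr, Tie1, Lyve1 or Emcn.

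Among 7 dendritic cell markers, Cd209a and Ccr7 set replicate 3 of both groups apart. Cd209a, a lectin gene, stood at 11.13 after PBS and 11.52 after Con A there, against 9.14 to 9.37 on the other 4 arrays. Ccr7, a chemokine receptor gene of migrating dendritic cells, stood at 9.78 and 10.24 there and at 8.22 to 8.68 elsewhere. Zbtb46 was also highest on this pair, at 7.86 and 7.61 against 7.12 to 7.47, while Clec9a (6.70 and 6.86), Siglech (6.51 and 6.47), Flt3 (6.90 and 6.78) and Xcr1 (5.76 and 5.57) did not stand apart on both arrays. The sum of the list, 11.9 and 12.2 against 10.4 to 10.7, therefore rests on Cd209a and Ccr7. By limma 0 of the 7 passed the test between groups, with 0 at an unadjusted p under 0.05. Tnfsf9 was highest and Tnfsf13b lowest on the same pair of arrays. With both arrays left out, Tnf, Ltb, Tnfsf14 and Tnfsf13b passed the test and Lta did not (adjusted p = 0.104), and the difference of Tnfsf13b was -0.51 (adjusted p = 0.0255). The part of what sets these arrays apart in the ligand levels was not tested.

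**Figure D4:**
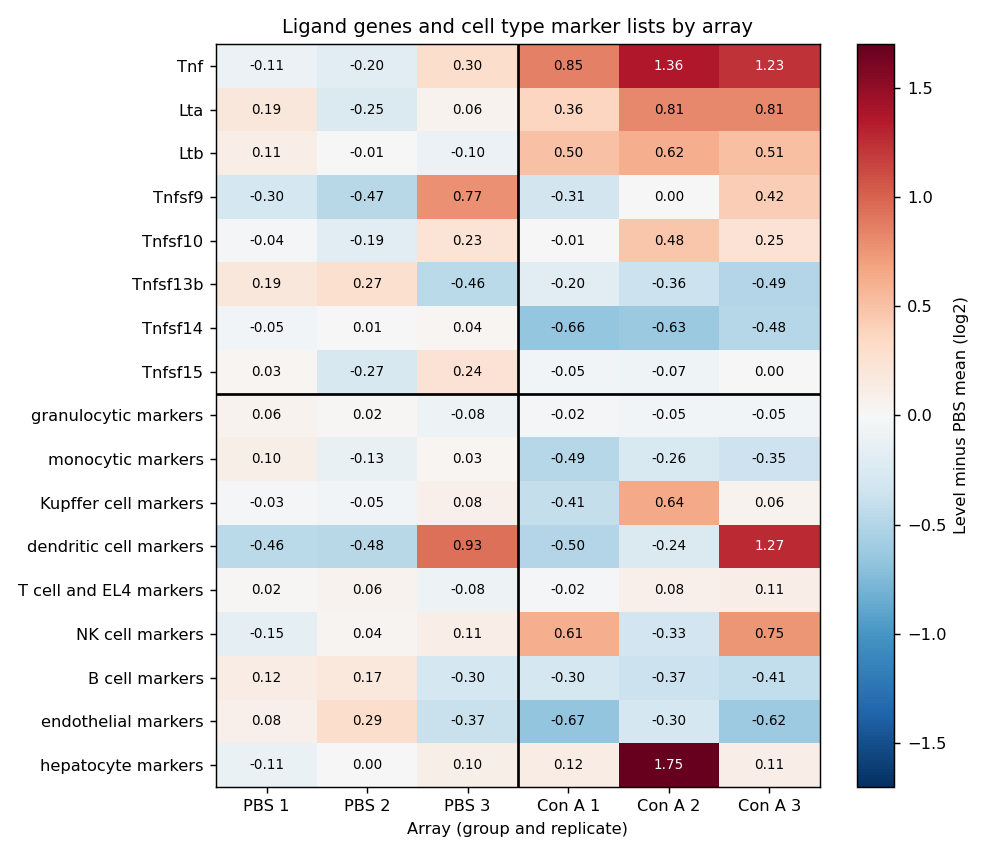
Level minus the PBS mean on the log2 scale (colour and printed value) for each ligand gene and for the summed level of each marker list, by array. Tnf, Lta and Ltb are positive in every Con A array and Tnfsf14 negative in every Con A array, while hepatocyte markers stand out in Con A replicate 2 and the dendritic cell list, through Cd209a and Ccr7, in replicate 3 of both groups.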

How the data were processed

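Gene expression was measured on 6 mouse Affymetrix gene arrays, 3 per group. Per the labels' protocols, biotin-labelled targets were made from total RNA after whole-transcriptome amplification. The table deposited by the authors holds log2 values, for which the submitters' processing notes name RMA and Partek without versions or settings. Differences of dim and of very bright probe sets can be understated on this scale. The array build and the number of mice per array are not given in the sources used here, and precision is limited by how few arrays there are.

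Of 35556 rows, 21789 carried 1 gene symbol in the platform annotation, 1621 several and 12146 none. Symbols were checked against RefSeq names (GRCm38.p6) through Entrez numbers, which changed 0. Each gene was represented by its brightest row on average, and 0 members had more than 1 row. No pair of arrays was identical (0 pairs). The 2 groups were compared by a two-sided moderated test (limma 3.58.1 under R 4.3.3), adjusted by Benjamini-Hochberg over all 19938 genes at a threshold of 0.05. Differences are Con A minus PBS. Python 3.11.15 with pandas 2.3.3 and matplotlib 3.10.9 served for tables and figures.

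The members and the 5 pathway and 9 marker lists were chosen with earlier results of these data known, so their counts are no independent evidence. All members are named, as are up to 4 called genes per pathway list by size, or the 2 largest differences where none passed, and for each member with a range of 1 or more the 2 genes with the most similar pattern. Other values of these lists, neighbours and summed markers were picked after the values were seen. On simulated data with 19938 genes, 200 of them changed in each of 10 runs, the fit found 38.3%, 84.1% and 96.6% of genes shifted by 0.5, 1 and 2 on the log2 scale, and 4.46% of calls were false. The arrays themselves gave 2355 calls, far more than the genes changed there. The adjusted threshold depends on that share, so these rates need not hold for this comparison. Alternatives were a filter on dim genes, a replicate block, the mean of a gene's rows, trended and robust moderation, median centring, array weights and each array left out; the fit without replicate 3 of both groups was chosen after seeing the data.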

Additional observations from a re-analysis of the deposited data

How the results depend on the processing

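The calls and directions of Tnf, Ltb and Tnfsf14 held in all 13 alternatives, with differences of 1.04 to 1.30, 0.50 to 0.60 and -0.64 to -0.55. Lta kept its direction in the 12 alternatives that tested it and lost its call in 5, all with arrays left out, at adjusted p up to 0.14. Tnfsf13b gained a call without PBS replicate 3 and without replicate 3 of both groups. The count of genes called was 2355 and ranged from 1140 to 2765 with 1 array left out, with the lowest counts when PBS replicate 1 (1140), Con A replicate 2 (1272) or Con A replicate 3 (1480) was dropped. The count of members called stayed between 3 and 5. Tnfsf9 changed sign with 1 array left out, from -0.20 to 0.42, and Tnfsf15 ranged from -0.18 to 0.081, with 0.059 without replicate 3 of both groups and 0.023 with array weights; neither was called in any. The cause was not tested. The filter on dim genes kept 4 of the 8 members and called 3 of those 4, beside 2366 of all 9970 genes kept. Of 193 alternatives of the 15 pathway genes named, 165 kept the direction and the outcome of the test, 28 lost the call and 0 reversed. The 165 include 12 alternatives each of Fasl and Cd40lg, which were not called in the main fit and had no call to lose.

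Same-numbered arrays correlated in their deviations from the group means at 0.23, -0.17 and 0.56, and arrays of different numbers at -0.54 to 0.54. The 0.56, of replicate 3, was the highest of all pairs. The main fit did not pair the samples by number, and these few correlations cannot tell whether the numbers mark pairs. With the replicate block 2539 genes and 4 members were called, and of the named genes only Tnfrsf14 lost its call (adjusted p = 0.0636). The block also called 1 Kupffer cell and 1 NK cell marker, lists with 0 calls without it. It called 6 monocytic markers (4 lower and 1 higher without it) and 2 B cell markers (1 lower without it). Of the genes of ligand release and Tnf messenger RNA control it called 5 (2 higher and 2 lower without it). Not every array correlated best with its own number. With 3 arrays a group and no detection calls, differences near or below the array medians are the least certain.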
